A study of Mus musculus with 4 samples.

Results

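The 10 genes described here, Bex1, Bex4, Tceal3, Wbp5, Morf4l2, Armcx1, Armcx2, Armcx3, Armcx4 and Armcx6, lie within 2.06 Mb of the mouse X chromosome (134686519 to 136743690, mm10). They were taken by symbol from an RNA-seq table of 25965 genes, 1091 of them X-linked. They were chosen by their share of reads from the inactive X and by their change on deletion of Smchd1, so the values of both kinds are given as a description, without a test. Every one of the 10 was found in the table, at the position that the GENCODE M21 annotation gives, where Wbp5 is named Tceal9.

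The deleted cells were Smchd1 del/del female neural stem cells, 2 libraries, set against Smchd1 del/fl female neural stem cells, also 2 libraries. All cells came from E14.5 embryos of a mixed C57BL/6, 129 and Castaneus (Cast) background that carried a deleted and a conditional Smchd1 allele, so the controls too carry 1 deleted allele, beside an intact conditional one. In all of them the maternal X is of 129 origin and carries the Xist deltaA allele (129-KO), which cannot silence, and the paternal X is of Cast origin with wild-type Xist, so that the Cast X is the inactive one. Del/del cells were made by transducing part of each line with the MSCV-Cre-puro retrovirus, adding puromycin 24 h later and harvesting on day 7, whereas del/fl cells are the untransduced remainder of the same lines. Deletion therefore cannot be told apart from transduction and selection. Smchd1 is a chromatin protein that helps to keep the inactive X and several autosomal gene clusters silent. The libraries pair by cell line, and the lines are called A and B, with 1 del/del and 1 del/fl library each; further lines were not analysed here.

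The Bex genes (brain-expressed, X-linked) encode small adaptor proteins, and Bex1 and Bex3 bind the neurotrophin receptor p75 encoded by Ngfr. The Tceal genes, Wbp5 among them, resemble the transcription elongation factor TCEA1. The Armcx genes encode armadillo-repeat proteins that arose in placental mammals from Armc10, and several of them sit on the outer mitochondrial membrane. A short non-coding element around the start sites of Bex, Tceal and related X-linked genes has been described before under the name BGW. Morf4l2 (MRGX) belongs to another family and is a chromatin subunit of the NuA4 acetyltransferase complex.

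The promoters of Bex1 and Bex4 are almost copies of each other, and these are also the members with the highest share of inactive-X reads, so both are printed in full. In RefSeq sequences on GRCm38.p6 (the mm10 build), their 300-base windows, from 250 bases before to 50 after the start, were identical at 288 of 294 aligned bases (98.0%), with an offset of 6 bases. The next most similar pair of windows from different members, Armcx1 and Armcx6, reached 50.5%, and the median over all 82 such pairs was 33.75%. Relatives in the same stretch also had similar windows, Arxes1 and Arxes2 at 300 of 300 bases (100%) and Bex2 and Bex3 at 223 of 263 (84.8%). Arxes1, Arxes2 and Bex2 were read from the 129 X, with a Cast share of at most 0.0993% in any library. Capitals mark the letters TGACG and CACGTGA, which stand 7 bases apart, and each stretch runs from 250 bases before the start to 20 bases into the transcript. Bex1 lies on the minus strand (chrX:136215494-136215763) and Bex4 on the plus strand (chrX:136138746-136139015).

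Bex1: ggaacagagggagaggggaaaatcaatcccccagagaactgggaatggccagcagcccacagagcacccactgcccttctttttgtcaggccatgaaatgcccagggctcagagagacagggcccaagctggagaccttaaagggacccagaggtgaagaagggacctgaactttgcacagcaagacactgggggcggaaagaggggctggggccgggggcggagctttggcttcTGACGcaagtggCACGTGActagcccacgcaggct
Bex4: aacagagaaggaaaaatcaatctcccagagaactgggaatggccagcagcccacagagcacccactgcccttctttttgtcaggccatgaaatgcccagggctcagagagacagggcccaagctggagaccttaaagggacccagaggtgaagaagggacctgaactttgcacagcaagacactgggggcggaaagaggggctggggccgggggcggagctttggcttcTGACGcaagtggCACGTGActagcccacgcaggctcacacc

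The same spaced pair of short words recurs at the starts of Tceal3, Armcx1 and Armcx6, in sequence that is otherwise unlike that of Bex1. Armcx4 has the words with 9 bases between them, and Wbp5 has a pair with 1 letter different. The stretches below are shown for that reason, 40 bases each, with the pair in capitals.

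Tceal3 (chrX:136666358-136666397, plus strand): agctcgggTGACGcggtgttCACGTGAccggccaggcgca
Armcx1 (chrX:134717915-134717954, plus strand): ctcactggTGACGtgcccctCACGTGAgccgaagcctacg
Armcx6 (chrX:134751426-134751465, minus strand): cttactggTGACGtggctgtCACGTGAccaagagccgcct
Armcx4 (chrX:134686494-134686533, plus strand): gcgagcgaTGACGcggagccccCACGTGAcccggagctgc
Wbp5 (chrX:136245068-136245107, plus strand): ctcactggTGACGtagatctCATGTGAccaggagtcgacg

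The pair with 7 bases between its words (TGACGNNNNNNNCACGTGA, searched on both strands) occurred in 12 of 32851 RefSeq promoter windows of the mouse genome (0.0365%), 10 of them X-linked. Those windows belong to 10 genes, and 5 of these are members: Armcx1, Armcx6, Bex1, Bex4 and Tceal3. Another 3 are relatives in the same stretch of the X (Tceal5, Tceal6 and Tceal8), and the remaining genes are Ubap2 and Vps33a. With 9 bases between the words (TGACGNNNNNNNNNCACGTGA) the pair occurred in 6 windows (0.0183%), namely those of Armcx4, of the relatives Bex3 and Tceal1, and of B230119M05Rik, Gm40744 and Rcbtb1. B230119M05Rik is a neighbour of Armcx4, its lower-coordinate end lying at −2.0 kb from that of Armcx4. Whether its window and that of Armcx4 hold the same site was not tested. Wbp5 differs from CACGTGA by C3T, counted from the first letter of that word.

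The word CACGTG alone, called an E-box, was found in 7.15% of all windows. Counted by gene, with at least 1 window that holds it, that was 8.09% of 27025 genes. By the same count it was 7 of the 9 members that have a window, Morf4l2 included. The letters searched were chosen after the sequences had been seen, so the counts describe these windows only, and a match is not evidence of binding by any factor. Armcx2 has neither word pair in its window, and Armcx3 matched no window. Genes with and without the pair are found both among the members read from the Cast X and among those read from the 129 X, as the values below show.

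The libraries held 33572648 and 31823877 total counts in del/del lines A and B and 29873400 and 34018500 in del/fl lines A and B, and between 25.3% and 25.9% of counts were assigned to a parental genome. Smchd1 itself had 785 and 852 counts in del/del cells, against 2779 and 3461 in del/fl cells. Of all X-linked assigned counts, Xist left out, 5.67% and 5.64% were Cast in del/del libraries, against 4.83% and 4.63% in del/fl libraries. These sums still held Tsix, which overlaps Xist, with 1265 and 1481 Cast counts in del/del and 1025 and 1302 in del/fl libraries. The shares without Tsix were not computed. Summed neural stem cell markers ranged from 9349 to 10322 CPM (counts scaled to the total count of their library) in del/del and from 9154 to 9766 in del/fl cells, with 10 of 10 markers found. Summed astrocyte markers were at 990 and 915 CPM in del/del and 565 and 574 CPM in del/fl cells, and 7 of these 8 markers were higher in both del/del libraries than in both del/fl libraries. Of all 14860 genes tested, 23.2% were higher in that way and 22.0% lower. Among neural stem cell markers 3 were higher and 3 lower, among neuron markers 2 and 2, and among oligodendrocyte markers 3 and 1. Summed neuron markers were at 532 and 301 CPM in del/del and 523 and 402 in del/fl cells. Those of oligodendrocytes were at 97 and 103 in del/del and 78.7 and 90 in del/fl cells. Microglial markers summed to 11.2 and 10.9 CPM in del/del and 10.3 and 11.2 in del/fl cells, with Cx3cr1 and Tmem119 at 0 in all libraries. Mesenchymal markers summed to 10.1 and 24.1 in del/del and 26.9 and 15.6 in del/fl cells, with Lum and Dcn at 0 in all libraries.

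Along this stretch of the X, genes read almost wholly from the inactive Cast chromosome stood beside genes read wholly from the active 129 chromosome, in every library. An X-linked gene was counted here if each library had 20 or more counts assigned to an allele. Of 371 such genes, 11 (2.96%) had a Cast share over 80% in all 4 libraries, and 3 of those were members, of 9 members with enough counts. Members were listed for this share, so nothing is read from that proportion. The 11 genes were Xist, its antisense partner Tsix (reads of the overlap cannot be told apart without strand), C330007P06Rik, Rpl39, Hmgn5, Diap2, Tmem35, Gla, Bex4, Bex1 and Morf4l2. The median gene of the 371 had a mean Cast share of 0.142%, and autosomal regions without a Cast haplotype gave 0.311% and 0.304% in del/del libraries and 0.335% and 0.321% in del/fl libraries as the background of misassigned reads. How reads were assigned to a genome is not known here, and the part of that step in shares near 100% was not tested. Those regions were taken as windows under 1% Cast, a limit that itself keeps this background low.

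Bex4 was read from the Cast X alone in 3 libraries. It had 113 and 172 Cast counts with 0 and 0 from 129 in del/del lines A and B, against 97 and 158 Cast counts with 0 and 2 from 129 in del/fl lines A and B. The Cast share was thus 100% and 100% in del/del cells (Wilson 95% intervals 96.7 to 100 and 97.8 to 100) and 100% and 98.8% in del/fl cells (96.2 to 100 and 95.6 to 99.7). The groups overlapped, and all 4 intervals lay above 95%. Between 44.7% and 50.2% of its counts could be assigned to an allele, which placed Bex4 at rank 20 of the 371 genes by that measure.

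Bex1 (minus strand, 136213972 to 136215513) had 32 and 71 Cast counts with 1 and 2 from 129 in del/del cells, against 49 and 94 Cast counts with 0 and 1 from 129 in del/fl cells. Its Cast share was 97.0% and 97.3% in del/del libraries and 100% and 98.9% in del/fl libraries. Both del/del shares were below both del/fl shares, on 3 counts from 129 against 1, and the Wilson intervals of the del/del libraries (84.7 to 99.5 and 90.5 to 99.2) overlapped those of del/fl (92.7 to 100 and 94.3 to 99.8). The assigned part of Bex1 was 16.2% and 22.3% in del/del cells, against 22.5% and 31.5% in del/fl cells, lower in del/del within each line.

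Bex1 and Bex4 share transcribed sequence as well as promoters. Of the 50-base words in annotated transcripts of Bex1, 30.9% also occur in transcripts of another gene, 16.0% in Bex4, 12.4% on the opposite strand in Tceal7, which overlaps Bex1, and 5.1% in Bex2. For Bex4 the figure was 49.7%, made up mainly of Bex1 (25.8%) and of the processed pseudogenes Gm12245 on chromosome 11 (19.7%) and Gm4322 on chromosome 1 (18.9%). The counts of both are therefore uncertain by an amount that the table does not show, and its part in their Cast shares was not tested. The neighbour Bex2 had 1006 and 1140 counts from 129 with 1 and 0 from Cast in del/del cells, and 808 and 1146 from 129 with 0 and 1 from Cast in del/fl cells, so this Bex gene was read from the active X.

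Morf4l2 was the most abundant member and among the least assignable. It had 309 and 262 Cast counts with 26 and 27 from 129 in del/del cells, against 359 and 316 Cast counts with 47 and 47 from 129 in del/fl cells. The Cast share was 92.2% and 90.7% in del/del libraries (intervals 88.9 to 94.6 and 86.7 to 93.5) and 88.4% and 87.1% in del/fl libraries (84.9 to 91.2 and 83.2 to 90.1). The groups did not overlap, although the intervals of the libraries did.

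These shares of Morf4l2 rest on 3.8% and 3.79% of its counts in del/del libraries and on 4.09% and 3.73% in del/fl libraries, rank 360 of 371 X-linked genes by assigned part. Its transcripts share 12.8% of their 50-base words with other genes, 11.2% with the processed pseudogene AC165327.2 on chromosome 19. That pseudogene had 43 and 45 total counts in del/del and 43 and 56 in del/fl cells, of which 16 and 17 in del/del and 17 and 19 in del/fl were Cast. From 129 it had 0 and 2 counts in del/del and 0 and 0 in del/fl cells. Nearly all of its assigned counts were thus Cast, like those of Morf4l2, and the part of shared words in the share of Morf4l2 was not tested. Morf4l2 also overlaps BC065397 on the opposite strand, which was read from the 129 X (103 and 90 counts in del/del, 107 and 123 in del/fl), and whether strand was used in counting is not given in the sources used here, so reads of the overlap cannot be told apart.

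Wbp5 was read from both chromosomes at similar levels. It had 276 and 253 Cast with 320 and 335 counts from 129 in del/del cells, against 263 and 334 Cast with 387 and 382 from 129 in del/fl cells. The Cast share averaged 44.7% ± 2.32 in del/del and 43.6% ± 4.37 in del/fl cells (SD, n = 2 each), with overlapping groups. Wbp5 ranked 16 of 371 by Cast share, no 50-base word of its transcripts was found in another gene, and 22.2% to 23.9% of its counts were assigned. Along the chromosome it lies between Bex1 and Morf4l2.

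Tceal3 and the 5 Armcx genes were read from the active X. Tceal3 and Armcx4 had no Cast count in any library, out of 132 and 2401 assigned counts summed over the 4 libraries, and the same held for Armcx6 with 218. A count of 0 allows a Cast share of up to 0.655% and 0.503% for Armcx4 in del/del libraries and up to 0.488% and 0.410% in del/fl libraries. For Tceal3 the depth was far lower, and 0 allows up to 4.92% and 6.82% in del/del and up to 30% and 17.6% in del/fl libraries.

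Armcx3 had 66 and 81 counts from 129 with no Cast count in del/del cells, against 46 and 44 from 129 with 0 and 1 from Cast in del/fl cells. Armcx2 had 8 and 11 Cast counts beside 683 and 682 from 129 in del/del cells, and 10 and 11 beside 873 and 861 in del/fl cells. Its Cast share of 1.16% and 1.59% in del/del and 1.13% and 1.26% in del/fl libraries was low but above the autosomal background in each library. Armcx1 had 5 and 0 Cast counts beside 188 and 117 from 129 in del/del cells, and 1 and 1 beside 149 and 131 in del/fl cells. The 5 counts of del/del line A gave 2.59% (interval 1.11 to 5.92), and the groups overlapped. Armcx3 shares 29.0% of its words with other loci, chiefly the pseudogene Gm9299 on chromosome 7 (27.6%), and Armcx6 shares 14.8% with the X-linked pseudogene Gm16397.

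**Figure D1:**
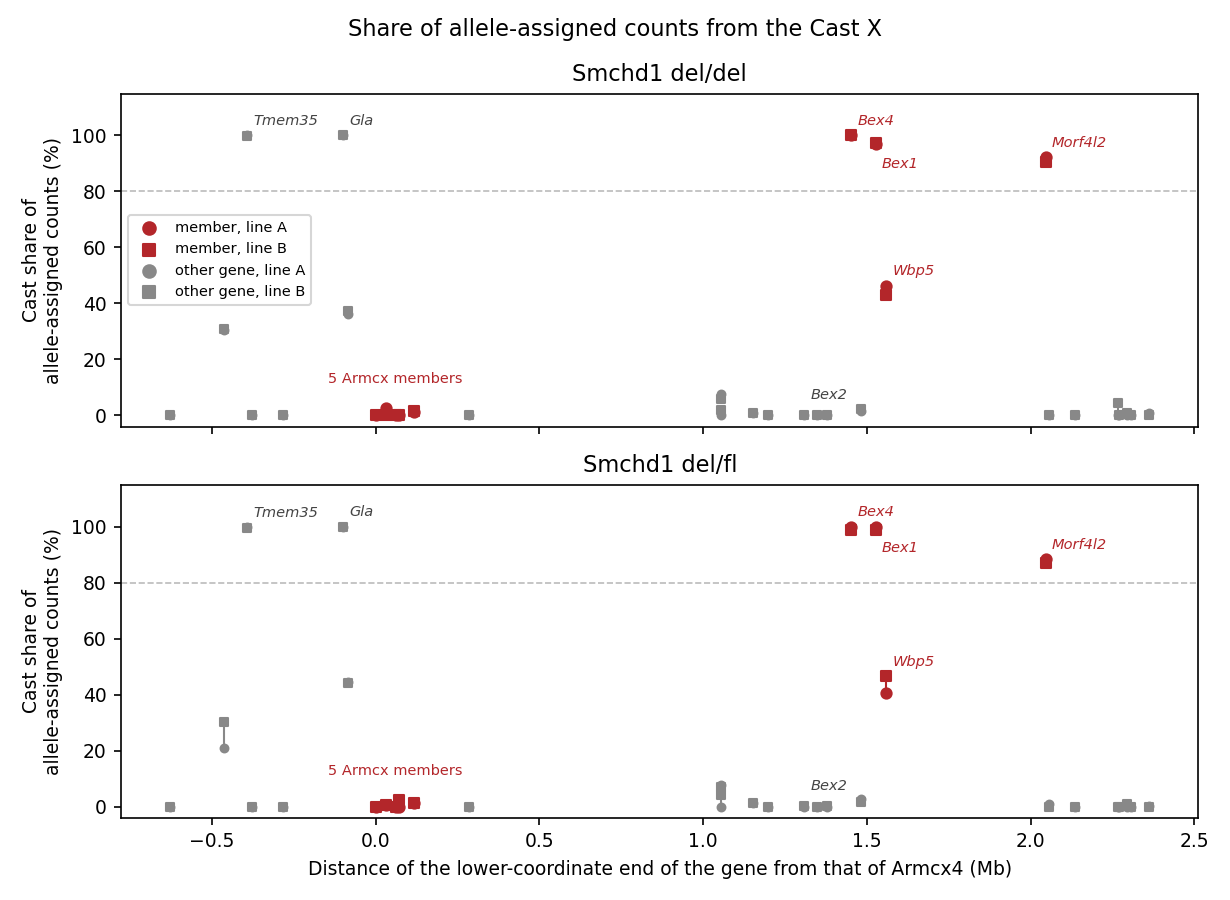
Cast share of allele-assigned counts (percent, vertical) of genes with 20 or more such counts in each library, against distance from Armcx4 along the X (Mb, horizontal), with del/del cells above and del/fl cells below. Circles are line A and squares line B, members are red, other genes grey, and the dashed line marks 80%. Bex4, Bex1, Morf4l2, Tmem35 and Gla lie above 80% in both groups, Wbp5 between 40.5% and 46.6%, and the 5 Armcx members under 3%.

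Genes outside the Bex, Tceal and Armcx families showed the same range of shares. The interval, extended by 1 Mb at either side, held 23 other genes with enough counts, relatives such as Bex2, Tceal8 and Armcx5 included. Of these 23, 2 were over 80% Cast in every library, Tmem35 and Gla, and 2 were between 10% and 80%, Trmt2b and Hnrnph2. Another 14 of the 23 were under 1% in every library, as were 2 of 9 members and 210 of 339 X-linked genes outside the interval. Tmem35, a neuronal membrane protein gene, had 543 and 356 Cast counts with 0 and 1 from 129 in del/del cells, and 559 and 398 with 1 and 1 in del/fl cells. Gla, which encodes the lysosomal alpha-galactosidase A, had 53 and 29 Cast counts in del/del and 45 and 58 in del/fl cells, with none from 129.

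By mean absolute difference in Cast share over the 4 libraries, the X-linked genes most like Bex4 were C330007P06Rik and Gla (0.312 percentage points each) and Tmem35 (0.365). Those most like Bex1 were Tsix (1.39 points), Xist (1.52) and Tmem35 (1.62). Morf4l2 was nearest to Diap2 (2.05 points), a formin gene, then to Hmgn5 (4.81) and Tsix (9.75). Hmgn5, a nucleosome-binding protein gene, was at 91.7% and 95% Cast in del/del and 95.8% and 94.1% in del/fl cells, lower in del/del in line A and higher in line B, whereas Morf4l2 was higher in del/del in both lines.

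**Figure D2:**
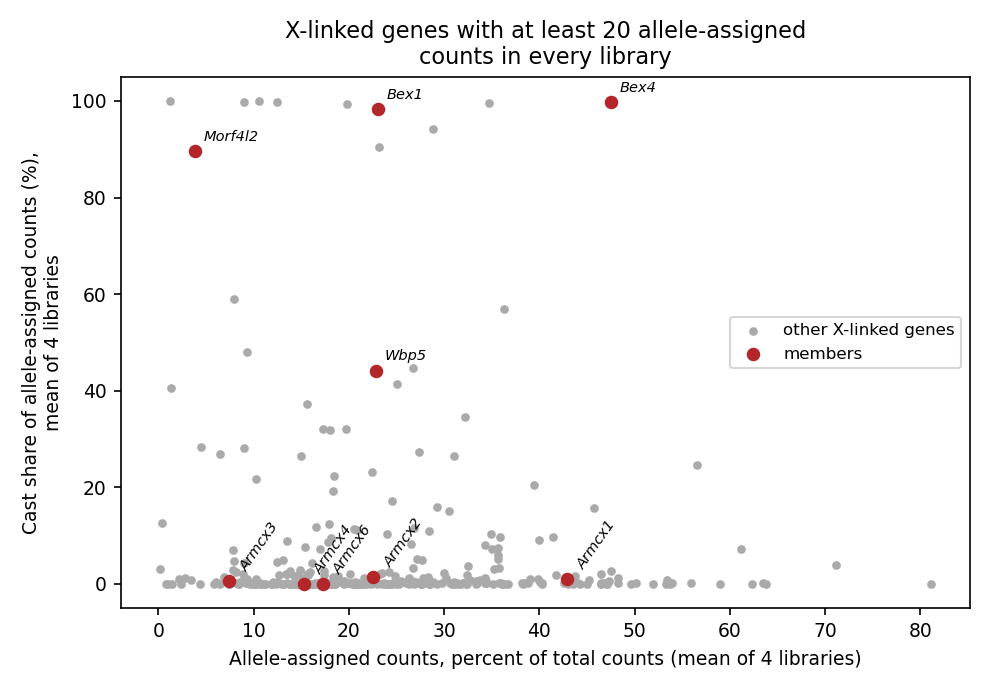
Cast share of allele-assigned counts (percent, vertical) against the part of total counts assigned to an allele (percent, horizontal), each the mean of 4 libraries, for 371 X-linked genes. Members are red and named, and others grey. Bex4 (47.5% assigned), Bex1 (23.1%) and Morf4l2 (3.85%) differ widely in assigned part and share a place at the top.

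Per kilobase of annotated exon, members spanned more than 2 orders of magnitude, from Morf4l2 to Tceal3. Morf4l2 averaged 80.1 ± 5.12 CPM per kilobase in del/del and 98.5 ± 10.4 in del/fl cells, and Wbp5 74.6 ± 0.305 in del/del and 92.2 ± 3.44 in del/fl cells (SD, n = 2 each here and for the levels that follow). Armcx2 came next at 21.3 ± 0.322 in del/del and 26.2 ± 2.11 in del/fl cells, then Armcx4 at 13.1 ± 2.41 and 17.4 ± 0.199. In the middle were Bex4 (10.6 ± 3.63 in del/del, 10.4 ± 2.48 in del/fl), Armcx3 (7.97 ± 0.265 and 5.84 ± 0.205) and Bex1 (6.89 ± 2.50 and 6.82 ± 0.942). Armcx6 (4.04 ± 0.691 and 3.83 ± 0.770), Armcx1 (3.50 ± 0.819 and 3.09 ± 0.304) and Tceal3 (0.623 ± 0.129 and 0.183 ± 0.0456) were the lowest.

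The libraries of Morf4l2 and Wbp5 overlapped in this order, as did those of Armcx4 and Bex4, of Bex4 and Armcx3, of Armcx3 and Bex1, and of Armcx6 and Armcx1. Those of the other neighbours did not. With the length of the longest transcript in place of all exons, Bex1 and Armcx3 changed places and the remaining order was kept.

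On deletion, the members went different ways and most differences were small. In CPM, the 2 groups did not overlap for 6 of 10 members, 2 higher (Tceal3 and Armcx3) and 4 lower (Wbp5, Morf4l2, Armcx2 and Armcx4) in del/del cells. Among all 14860 genes tested, 45.2% had groups that did not overlap, 23.2% higher and 22.0% lower. Members were listed for this change, so nothing is read from their share. The median log2 fold change of the members was 0.01, as was that of all genes. Fold changes and SE of single members below are from the fit without a term for cell line, unless a line or the block is named. In bulk RNA, fewer cells that express a gene and less RNA per cell cannot be told apart.

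**Figure D3:**
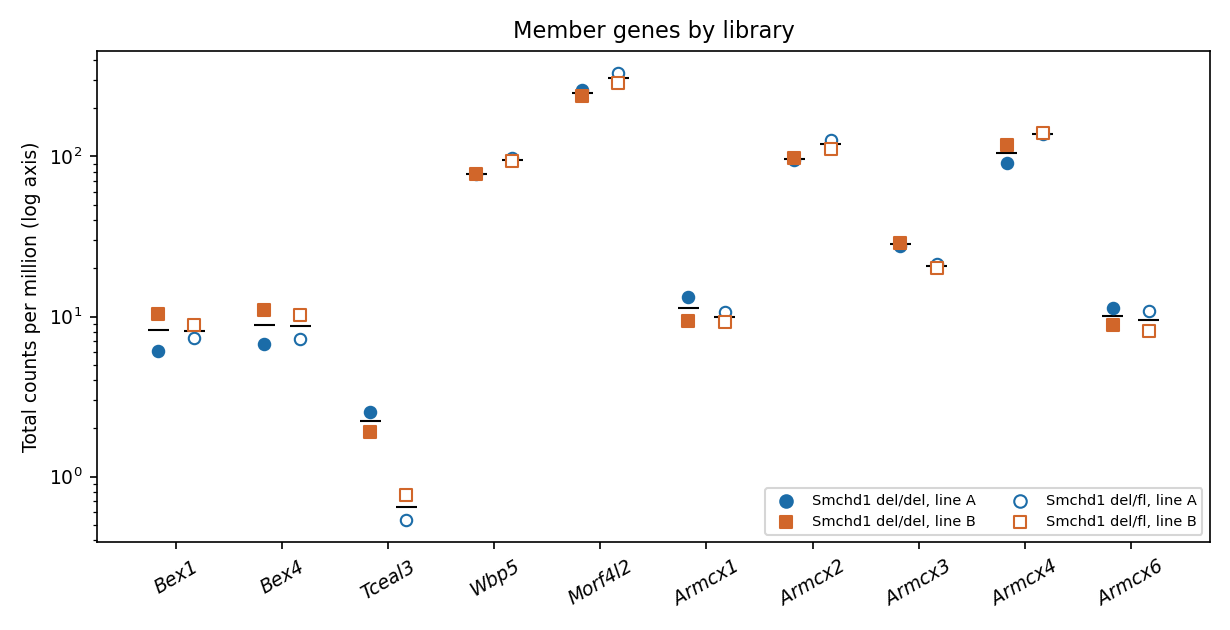
Total CPM of each member on a log axis, with del/del libraries (filled) left of del/fl libraries (open); circles are line A, squares line B, and short lines the group means. Tceal3 has the widest gap between groups, and the groups overlap for Bex1, Bex4, Armcx1 and Armcx6.

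Tceal3, a member of the elongation factor-like family, had 85 and 60 counts in del/del lines A and B, against 16 and 26 counts in del/fl lines A and B. That is 2.53 and 1.89 CPM in del/del and 0.536 and 0.764 CPM in del/fl cells, with no overlap. Its log2 fold change was 1.75 (SE 0.38), and 2.24 in line A and 1.30 in line B taken alone. All of its assigned counts came from the 129 X, 61 and 44 counts from 129 in del/del and 10 and 17 in del/fl cells.

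Of the 50-base words of Tceal3, 11.5% occur in Tceal6 and 6.7% in Tceal5. Tceal6 had 82 and 82 counts in del/del and 46 and 47 in del/fl cells, and Tceal5 between 6 and 12 counts in every library, and the counts of Tceal3 are uncertain to the extent that reads of the shared words were split between them. By the root mean square difference of centred log2 CPM over the 4 libraries, the genes most like Tceal3 among 14860 were Spon1 (0.0749), Abca8b (0.0860) and Cbln3 (0.0985), on chromosomes 7, 11 and 14. Spon1, which encodes an extracellular matrix protein, had 102 and 83.0 CPM in del/del and 22.0 and 32.9 CPM in del/fl cells. The astrocyte markers given above were higher in the same libraries, and their part in the value of Tceal3 was not tested.

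Armcx3, whose protein links mitochondria to the Miro and Trak2 transport machinery in neurons, was the other member higher in del/del cells. It had 925 and 919 counts in del/del, against 633 and 686 in del/fl cells, or 27.6 and 28.9 CPM against 21.2 and 20.2 CPM. The groups did not overlap, and the log2 fold change was 0.44 (SE 0.12), similar in lines A (0.38) and B (0.52).

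The 4 members lower in del/del cells were so in both lines, by less than 1 on the log2 scale. Armcx4 had 3051 and 3761 counts (90.9 and 118 CPM) in del/del, against 4119 and 4767 counts (138 and 140 CPM) in del/fl cells, a log2 fold change of −0.42 (SE 0.15). Line A differed by −0.60 and line B by −0.25, and both del/del libraries were below both del/fl libraries.

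Armcx2 had 3200 and 3099 counts (95.3 and 97.4 CPM) in del/del, against 3752 and 3812 counts (126 and 112 CPM) in del/fl cells, a log2 fold change of −0.31 (SE 0.10). Nearly all of its assigned counts came from the 129 X, so the lower level was that of the active X. Wbp5 had 2606 and 2456 counts (77.6 and 77.2 CPM) in del/del, against 2931 and 3166 counts (98.1 and 93.1 CPM) in del/fl cells. Its log2 fold change was −0.31 (SE 0.09) on all counts, −0.29 (SE 0.20) on 129 counts and −0.22 (SE 0.31) on Cast counts, values that lie within each other's errors.

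Morf4l2 had 8812 and 7630 counts (262 and 240 CPM) in del/del, against 9920 and 9722 counts (332 and 286 CPM) in del/fl cells. The groups did not overlap, and the log2 fold change was −0.30 (SE 0.12). On 129 counts it was −0.88 (SE 0.30), and on Cast counts −0.31 (SE 0.34), on the few assigned counts given above.

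The remaining 4 members had overlapping groups. Bex1 had 204 and 327 counts (6.08 and 10.3 CPM) in del/del, against 218 and 302 counts (7.30 and 8.88 CPM) in del/fl cells. Bex4 had 225 and 350 counts (6.70 and 11.0 CPM) in del/del, against 217 and 347 counts (7.26 and 10.2 CPM) in del/fl cells. In both genes line A and line B stood further apart than the groups did. Each had a log2 fold change of 0.01, with SE 0.32 for Bex1 and 0.34 for Bex4. With line as a block the values were −0.02 (SE 0.18) for Bex1 and −0.00 (SE 0.15) for Bex4. Without the block Bex1 was the member of smallest change, by a margin lost in rounding, and with the block it was Bex4. The genes most like Bex1 over the 4 libraries were Tnfaip2 (root mean square difference 0.0272), Pclo (0.0355) and Cgn (0.0393).

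Armcx1, a mitochondrial protein gene studied for axon regrowth in mouse retinal neurons, had 442 and 300 counts (13.2 and 9.43 CPM) in del/del, against 319 and 316 counts (10.7 and 9.29 CPM) in del/fl cells. Armcx6, a related gene, had 378 and 281 counts (11.3 and 8.83 CPM) in del/del, against 325 and 278 counts (10.9 and 8.17 CPM) in del/fl cells. Both groups overlapped, with log2 fold changes of 0.17 (SE 0.24) for Armcx1 and 0.07 (SE 0.25) for Armcx6.

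**Figure D4:**
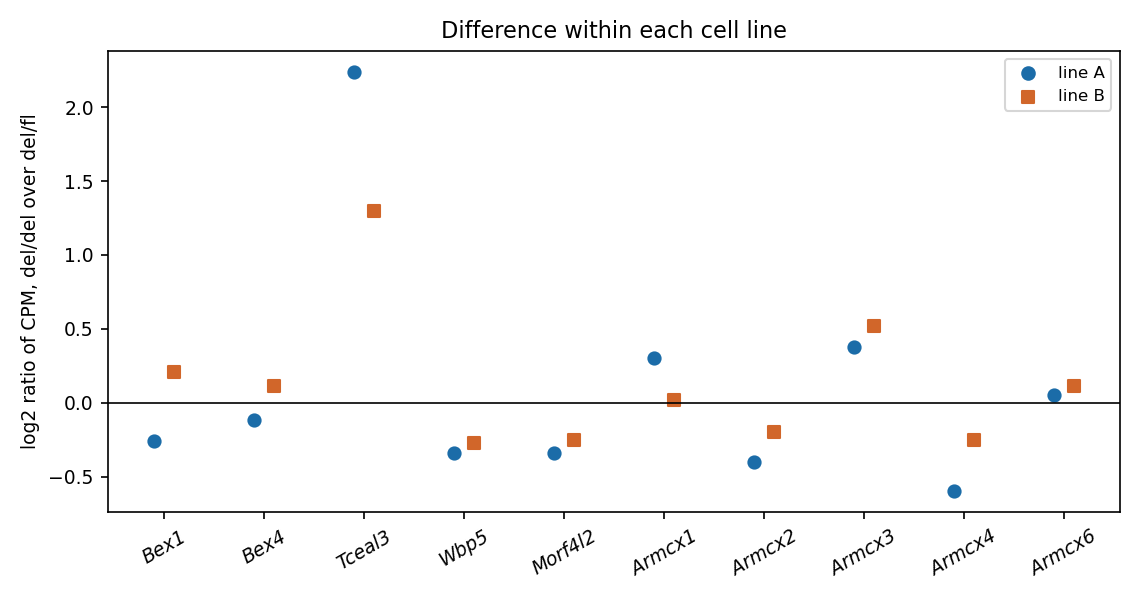
Log2 ratio of CPM, del/del over del/fl, within line A (circles) and line B (squares) for each member. Tceal3 lies highest at 2.24 and 1.30, 4 members lie below 0 in both lines, and Bex1 and Bex4 lie on opposite sides of 0 in the 2 lines.

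Over the whole table, deletion gave no call in edgeR without a term for cell line (0.00% of 14860 genes tested on all counts at an adjusted p under 0.05; before adjustment 1019 were higher and 718 lower at that threshold). Even Smchd1 did not pass in that fit (log2 fold change −1.96, SE 0.12, edgeR adjusted p = 0.341), so 0 calls do not show an absence of change. With line as a block 5.60% of genes passed on all counts, 551 higher and 281 lower, and with DESeq2 and the block 8.53% of 13998. Smchd1 had an edgeR adjusted p of 0.0194 with the block. With the block, 10.4% of 12528 genes passed on 129 counts, 4.87% of 7918 on Cast counts and 0.290% of 12774 for the ratio of Cast to 129 counts. These shares are the background for the lists of other genes given further on. The members were chosen on this comparison, so no call of theirs is given for it.

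The comparison of the cell lines, which the listing of the members did not use, can be tested. In edgeR with genotype as a term, 10.1% of 14860 genes differed between line B and line A, 521 higher and 985 lower in line B, and 0 of 10 members did, against 4 members at an unadjusted p under 0.05. The closest was Bex4, higher in line B in both genotypes with a log2 fold change of 0.59 (SE 0.15, edgeR adjusted p = 0.0784). Armcx6 was next with −0.39 (SE 0.14, edgeR adjusted p = 0.141), lower in line B in both genotypes. Bex1 had 0.51 (SE 0.18, edgeR adjusted p = 0.146), higher in line B like Bex4. These p-values measure the spread of cultures from 2 lines only.

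Relatives of the members, tested against all genes, gave no call on all counts, with or without the block. The list of relatives in the Bex and Tceal families held 9 symbols, of which Bex3 and Ngfrap1 name the same gene. Of these symbols 8 were in the table and 7 were tested. With the block 0 rose and 0 fell, with a median log2 fold change of 0.15, against 0.01 for all genes. The 2 most abundant were Bex2, at 152 and 164 CPM in del/del and 128 and 156 CPM in del/fl cells (log2 fold change 0.15 with SE 0.08 and edgeR adjusted p = 0.253 with the block), and Tceal8, at 109 and 129 CPM in del/del and 116 and 116 CPM in del/fl cells. Of 7 Armcx relatives 0 rose and 0 fell with the block, with a median of 0.23. The most abundant of these, Gprasp1 and Bhlhb9, which encode GASP family proteins, did pass between the lines, both higher in line B.

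Of the 67 other genes of the interval, 36 were tested on all counts. With the block 1 of the 36 passed, Pcdh19, an adhesion protein gene, which rose, against 5.60% of all genes. On 129 counts Mcart6, Arxes1 and Zcchc18 rose, 3 of 27 tested, against 10.4% of all genes, a share near the background. The median log2 fold change of the 36 genes was 0.19 with the block, against 0.01 for all genes, and 27 were above 0. On 129 counts the median was 0.25, against 0.00 for all genes, and 23 of 27 were above 0. This shift of the neighbours as a set was not tested. The most abundant neighbours not yet described were Cstf2 (196 and 244 CPM in del/del, 182 and 225 in del/fl), Tspan6 (148 and 135 in del/del, 157 and 134 in del/fl) and Hnrnph2 (122 and 146 in del/del, 135 and 147 in del/fl). In all 3 the groups overlapped.

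Partners of the members by known function were set beside them. In the list of MRG and NuA4 complex genes, 17 were tested and 0 passed in either direction with the block, with a median log2 fold change of −0.11. Trrap, a scaffold of the complex, was at 272 and 319 CPM in del/del and 332 and 333 CPM in del/fl cells (log2 fold change −0.18 with SE 0.08 and edgeR adjusted p = 0.219 with the block). Among 11 genes of mitochondrial transport and fusion 0 passed with the block, the median being 0.04. Mfn1, a fusion GTPase gene, was at 222 and 249 CPM in del/del and 170 and 202 CPM in del/fl cells (log2 fold change 0.34, edgeR adjusted p = 0.0568 with the block), and it passed the test on 129 counts. Of 12 elongation factor genes tested 0 passed with the block, with a median of −0.09, among them Aff4 at 319 and 343 CPM in del/del and 364 and 376 CPM in del/fl cells.

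Neurotrophin receptor genes were the only one of these lists of partners with calls on all counts. Of 9 tested genes 3 rose with line as a block and 0 fell, where 5.60% of all genes passed, the list's median being −0.01, and without the block none passed. Ngfr, which encodes p75, had 168 and 64 counts in del/del, against 19 and 12 in del/fl cells (log2 fold change 2.77 with SE 0.29 and edgeR adjusted p = 0.0227 with the block, 0.401 without). Ntrk2, the receptor of BDNF, had 930 and 491 CPM in del/del, against 314 and 241 CPM in del/fl cells (log2 fold change 1.29 with SE 0.14 and edgeR adjusted p = 0.0245 with the block, 0.406 without). Ntrk3, the receptor of neurotrophin 3, had 25.2 and 47.4 CPM in del/del, against 17.1 and 33.9 CPM in del/fl cells, overlapping between groups while higher within each line (log2 fold change 0.52, SE 0.09, edgeR adjusted p = 0.0467 with the block, 0.682 without).

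The summed astrocyte markers moved in the same libraries as Ngfr and Ntrk2, and their part in these values was not tested. Bex1, whose protein binds p75, had overlapping groups, at 6.08 and 10.3 CPM in del/del and 7.30 and 8.88 CPM in del/fl cells. Bex3, listed in the table under its older symbol Ngfrap1, had 2522 and 2333 counts in del/del and 2390 and 2861 in del/fl cells. In CPM that is 75.1 and 73.3 in del/del and 80 and 84.1 in del/fl cells, and under 1% of its counts were assigned to an allele in every library.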

How the data were processed

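The 4 RNA-seq libraries come from a table of raw counts that the authors deposited, with whole numbers per gene for all aligned reads and for each parental genome, 12 columns altogether. The submitters' processing notes name the build mm10 and, among the tools, TopHat2 2.0.12, bcl2fastq and edgeR. For allele splitting, counting and strand no tool is given in the sources used here. As the genomes are unnamed, the second was read as Cast because 99.57% or more of assigned Xist counts fell there.

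The start of a column name gives the genotype and its number the line; which of the 2 sample titles of a group a number stands for is unknown, and no value depends on it. In 254 autosomal windows of 10 Mb, same-numbered libraries disagreed on the presence of a Cast haplotype (a Cast share of at least 1%) in 2.0% of windows and differently numbered ones in 30.7% to 32.3%, so the number marks the line and pairs the libraries. Deviations of same-numbered libraries from their group means correlated at r = 0.72 across 14860 genes, which are not independent replicates. Blocked values are given where they change a call. Between the libraries of each group the counts differed beyond sampling noise, with a chi-square of 74.7 per degree of freedom in del/del and 46.0 in del/fl.

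Genes were tested over the whole table with edgeR 4.0.16 in R 4.3.3 (quasi-likelihood, TMM, filterByExpr, Benjamini-Hochberg threshold 0.05) with genotype as the only term. Tests of 129 and Cast counts used library sizes summed over both alleles with the TMM factors of those sums; the ratio was an allele by genotype term. DESeq2 1.42.0, other filters, other scaling and leaving out each library were the alternatives. The tests were also run on simulated data with known changes and with pairing by line built in, and the outcome is not given here. Counts per kilobase used the union of GENCODE M21 exons. Wilson intervals are at 95%, a count of 0 was given the limit of 3 counts, and both cover counting error only. Promoter windows are those of RefSeq on GRCm38.p6. Words of 50 bases were compared between annotated transcripts on both strands, and words of 100 bases were an alternative added after seeing the data.

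The members, gene lists and tests were chosen with earlier results of these data known. Named genes were all members; from each list those called with the block, up to 4 by lowest p, or else the 2 with the highest mean count; in the interval up to 8 with the highest mean count, Tmem35, Bex2, Tceal8, Gprasp1 and Bhlhb9 among them; all X-linked genes over 80% Cast; and the 3 genes nearest in profile. Pcdh19, Mcart6, Arxes1, Arxes2, Zcchc18, Mfn1 on 129 counts, Trmt2b, Tceal1, Tceal6 and the genes that share words or overlap with members were named after their values were seen.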

Additional observations from a re-analysis of the deposited data

Results flagged for a closer look

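For several members the lines moved in opposite directions, del/del minus del/fl, and in no case was the difference between lines tested, since each line has 1 library per genotype. The log2 CPM of Bex1 differed by −0.26 in line A and by 0.21 in line B, and that of Bex4 by −0.12 in line A and by 0.11 in line B. The Cast share of Wbp5 differed by 5.85 percentage points in line A and by −3.62 points in line B, and that of Armcx1 by 1.92 points in line A and by −0.758 points in line B, where line B rests on 0 Cast counts in del/del and 1 in del/fl cells. The allele-assigned part of Armcx6 differed by −5.01 points in line A and by 1.25 points in line B, that of Armcx3 by −0.132 points in line A and by 2.25 points in line B, and that of Morf4l2 by −0.291 points in line A and by 0.0539 points in line B.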

How the results depend on the processing

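With line as a replicate block, calls moved to 551 higher and 281 lower on all counts, 844 and 464 on 129 counts, 250 and 136 on Cast counts and 29 and 8 for the ratio, each against 0 and 0 without it, where 1019 and 718, 213 and 86, 13 and 4, and 63 and 35 genes had an unadjusted p under 0.05. DESeq2 called 242 higher and 101 lower on all counts (756 and 438 with the block) and 4 and 1 on 129 counts. Between the lines, against 521 higher and 985 lower, 3 and 5 passed without a genotype term and 799 higher without the count filter. Leaving out a library, and with it the genotype term, left 0 to 19 higher and 0 to 157 lower; the fit then has fewer samples. The median log2 fold change of the members, 0.01 on all counts, lay between −0.29 and −0.03 when a library was left out, and that on 129 counts, −0.21, between −0.40 and 0.05 (0.05 without del/fl line A). Leaving out a library left 0 calls in every test of genotype, where the lone library of its group was taken to vary like the others.

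Of 90 recomputed total log2 fold changes of single members 86 moved by less than 1 SD, as did 60 of 64 on 129 counts. Tceal3 ranged from 1.52 to 2.03 on all counts and Armcx3 from 0.40 to 0.48, and the 4 lower members stayed below 0. The sign of Bex1, Bex4, Armcx1 and Armcx6 changed when some libraries were left out, and that of Bex1 and Bex4 also with the block. The number of X-linked genes over 80% Cast was 11 with a minimum of 10 counts and 8 with 50, where Bex1 dropped out, and 11 at a limit of 70% and 9 at 90%, where Morf4l2 dropped out. With words of 100 bases the shared part was 20.4% for Bex1, 26.0% for Bex4 and 5.3% for Morf4l2. Among the members, Tceal3 had the fewest allele-assigned counts (132 over the 4 libraries), then Armcx6 (218).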

Other observations

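Of the promoter windows of members, that of Armcx2 held the fewest CG dinucleotides, 4, and a window of Morf4l2 the most, 25, against a median of 7 over all 32851 windows.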
